A study of Mus musculus with 15 samples.

Results

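The genes described here are the 10 regulators of the G1 phase that were listed by name for this account: the D-type cyclins *Ccnd1*, *Ccnd2* and *Ccnd3*, the kinases *Cdk4* and *Cdk6*, the E-type cyclins *Ccne1* and *Ccne2*, the kinase inhibitors *Cdkn1b* and *Cdkn2c*, and *Rb1*. They were taken by symbol from 41388 genes listed, and all 10 were found. RNA was sequenced from A20, a B-cell lymphoma line of the BALB/c mouse strain, as the unedited parental line (genotype WT) and as 4 lines whose *Foxp1* gene had been mutated with CRISPR/Cas9. E6.1 and E6.2 were targeted in exon 6 of *Foxp1*, and E7.1 and E7.2 in exon 7. Each edited line grew from a single sorted cell and is 1 clone, with its own frameshift and premature stop codon, and per the study's Western blots the exon 6 clones retain shorter Foxp1 proteins whereas the exon 7 clones lack them. The parental cells were not transfected or cloned, and all lines were cultured without treatment, with 3 biological replicates per line from separate passages and 15 libraries in all. A p value here therefore measures the spread between passages of a line and not the spread between clones.

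A cell that enters the cycle passes a control point late in G1. D-type cyclins bind Cdk4 or Cdk6, the complexes phosphorylate the retinoblastoma protein Rb1, and E2F transcription factors are released and switch on genes of DNA replication, among them those of the E cyclins, which activate Cdk2 and complete the phosphorylation of Rb1. The inhibitors act against this: Cdkn2c (p18) binds Cdk4 and Cdk6, and Cdkn1b (p27) blocks mainly cyclin E with Cdk2. In B cells cyclin D3 is known for its part in the germinal centre and in lymphoma, and *Cdkn1b* is a textbook target of the FOXO factors, which belong to the same forkhead family as Foxp1.

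Levels are given in CPM, that is, the read pairs counted on a gene, scaled to the library's total by the TMM method, and folds come from edgeR's quasi-likelihood test on the raw counts. Library totals ranged from 26328054 to 39181530 counts. *Foxp1* RNA was 102 to 166 CPM in the parental libraries, 99.5 to 109 CPM in those of the E6 clones and 37.1 to 64.3 CPM in those of the E7 clones, so the E7 libraries lay below all others. The fall was called for both E7 clones, E7.2 (log2 fold change -1.69, adjusted p = 0.00116) more than E7.1 (-1.29, adjusted p = 0.00688). For the E6 clones the values were -0.39 (E6.2, adjusted p = 0.417) and -0.41 (E6.1, adjusted p = 0.765), which did not pass. The 7 B-cell markers summed to between 3480 and 4920 CPM in every library, while those of T cells (4 genes, 1 of them at 0 in every library), myeloid cells (3 genes) and stroma (3 genes) each summed to under 1 CPM (at most 0.687). *Cd79a*, a subunit of the B-cell receptor, was higher in the E7 than in the E6 clones (log2 fold change 1.08, adjusted p = 0.0037), as was *Ms4a1*, the gene of CD20 (0.44, adjusted p = 0.0407). These were 2 of the 7 markers, in a comparison that called 12.1% of all tested genes. *Ms4a1* was lower in E6.2 than in parental cells (-0.91, adjusted p = 0.0227), where 1.17% of all tested genes were called. A pair of libraries stood apart most in the make-up of their counts. In E6.2 replicate 1, 10.3% of counts fell on *Gm42418*, a gene model over ribosomal RNA sequence, against at most 2.22% in the others. In E7.2 replicate 3, 10.4% fell on mitochondrial genes, against at most 7.28% elsewhere. Values of members that moved without 1 library of this pair against parental cells are given both ways. The 2.22% was that of parental replicate 1, against 0.228% and 0.262% in the other parental libraries. Without E6.2 replicate 3, 7.05% of all tested genes were called in E7.1 against parental cells, and 1.22% with it.

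The results below turn on *Ccnd3*, *Ccne1* and *Cdkn1b*, so the stretches upstream of their start sites are shown, as the places where a forkhead factor could bind near the start. The table of RefSeq promoters (GRCm38.p6) held 8 starts of 6 of the 10 genes. Those of *Ccnd1*, *Ccnd2*, *Ccne2* and *Rb1* were not matched. Each stretch runs from 250 to 51 bases before a start, 200 bases in the direction of the gene. The forkhead core TGTTT, searched on both strands, is in capitals.
Ccnd3 first start, chr17:47504801-47505000, forward strand: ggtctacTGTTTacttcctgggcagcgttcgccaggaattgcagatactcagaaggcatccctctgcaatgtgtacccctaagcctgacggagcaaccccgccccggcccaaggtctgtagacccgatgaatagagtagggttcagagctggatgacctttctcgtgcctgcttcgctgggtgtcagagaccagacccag
Ccnd3 second start, chr17:47593217-47593416, forward strand: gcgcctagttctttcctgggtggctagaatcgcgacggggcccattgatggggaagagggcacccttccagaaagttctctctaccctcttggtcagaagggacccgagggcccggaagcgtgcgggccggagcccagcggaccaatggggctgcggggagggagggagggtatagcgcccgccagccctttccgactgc
Ccne1, chr7:38107541-38107740, reverse strand: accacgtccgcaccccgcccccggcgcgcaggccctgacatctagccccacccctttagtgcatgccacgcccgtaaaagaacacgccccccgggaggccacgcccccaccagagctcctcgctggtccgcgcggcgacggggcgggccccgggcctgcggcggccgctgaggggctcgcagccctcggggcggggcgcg
Cdkn1b, chr6:134920151-134920350, forward strand: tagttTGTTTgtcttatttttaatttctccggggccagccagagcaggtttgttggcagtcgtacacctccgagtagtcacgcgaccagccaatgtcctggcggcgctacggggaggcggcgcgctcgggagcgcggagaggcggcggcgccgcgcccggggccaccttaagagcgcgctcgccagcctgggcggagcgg

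The core was found 1 time before the first *Ccnd3* start, where it is part of the full forkhead motif TGTTTAC, and 1 time before *Cdkn1b*, where it reads on as TGTTTGT. It was in none of the other 6 stretches, which are the second *Ccnd3* start, *Ccne1*, *Cdk4*, *Cdk6* and both starts of *Cdkn2c*. Among all 32851 RefSeq promoters cut to the same 200 bases, 41.1% held the core, which contains the full motif's first letters, and 2.58% held TGTTTAC. The *Ccne1* stretch held 3 copies of GGGCGG, the letters of an Sp1 box, on either strand, a motif present in 24.6% of all promoters. A match is a description of letters, and binding was not measured here.

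Of the D-type cyclins, which are the regulatory subunits that start the phosphorylation of Rb1, *Ccnd3* was the one expressed at an appreciable level. *Ccnd3* (ENSMUSG00000034165, chromosome 17, from 47505051 to 47599691 of GRCm38) was at 110, 42.3 and 35.2 CPM in parental replicates 1, 2 and 3. The E6.1 libraries held 32.6, 59.4 and 33.3 CPM, and the E6.2 libraries 36, 36.8 and 45 CPM. In E7.1 it was at 162, 143 and 136 CPM, and in E7.2 at 119, 127 and 92.8 CPM. The E7.1 libraries lay above the parental range, those of E7.2 overlapped it only through parental replicate 1, and every E7 library lay above every E6 library. The order of the means was therefore E7.1 (147 ± 13 CPM, SD, n = 3), E7.2 (113 ± 17.9 CPM), parental (62.6 ± 41.4 CPM), E6.1 (41.8 ± 15.3 CPM) and E6.2 (39.3 ± 5 CPM), and of the neighbours in it only E7.1 and E7.2 did not overlap.

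Against parental cells the log2 fold change of *Ccnd3* was 1.23 in E7.1 (SE 0.35, 95% interval 0.48 to 1.98, adjusted p = 0.0803), followed by 0.85 for E7.2 (SE 0.348, adjusted p = 0.326). The E6.2 value was -0.67 (adjusted p = 0.427) and that of E6.1 -0.58 (adjusted p = 0.854), so *Ccnd3* was not called in any single clone. Without parental replicate 1 the log2 fold change of *Ccnd3* was 1.57 for E7.2 (adjusted p = 0.0199) and 1.94 for E7.1 (adjusted p = 0.00283), and both were called, while the values of the E6 clones moved to 0.03 (E6.2) and 0.11 (E6.1). With that library kept, *Ccnd3* was called in E7.1 with no filter on low counts (adjusted p = 0.0254), by DESeq2 (adjusted p = 0.0138), by edgeR's likelihood ratio test (adjusted p = 0.0203) and without replicate 3 of both E6.2 and E7.2 (adjusted p = 0.0322). *Ccnd3* shares 4.114% of its exon bases with *Bysl*, and read pairs there were not counted.

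*Ccnd1* and *Ccnd2*, the other D cyclins, were close to the limit of detection. *Ccnd1* (chromosome 7, from 144929931 to 144939869) held 4 to 28 counts per library and averaged 0.278 CPM in E7.1 and 0.489 CPM in parental cells, the lowest and highest of the 5 lines. The E7.1 libraries (0.102 to 0.375 CPM) lay below the parental ones (0.4 to 0.582 CPM), and the log2 fold change of -0.81 did not pass the test (SE 0.535, adjusted p = 0.417). *Ccnd2* (chromosome 6, from 127125779 to 127151048) held 0 to 9 counts per library and did not pass the filter on low counts, so 9 of the 10 genes were tested. Its largest counts were 9 and 5, in replicates 1 and 2 of E7.1, and 4, in parental replicate 2 and E7.2 replicate 3. In the other 11 libraries it was at or under a floor of 3 counts, which covers counting error only. Per base of exon, *Ccnd3* made up 97.6% ± 1.33 (SD, n = 3) of the D cyclins in parental cells. The share was 97.3% ± 1.78 for E6.1 and 97.2% ± 1.12 for E6.2, against 99.1% ± 0.499 for E7.2 and 99.4% ± 0.235 for E7.1.

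**Figure D1:**
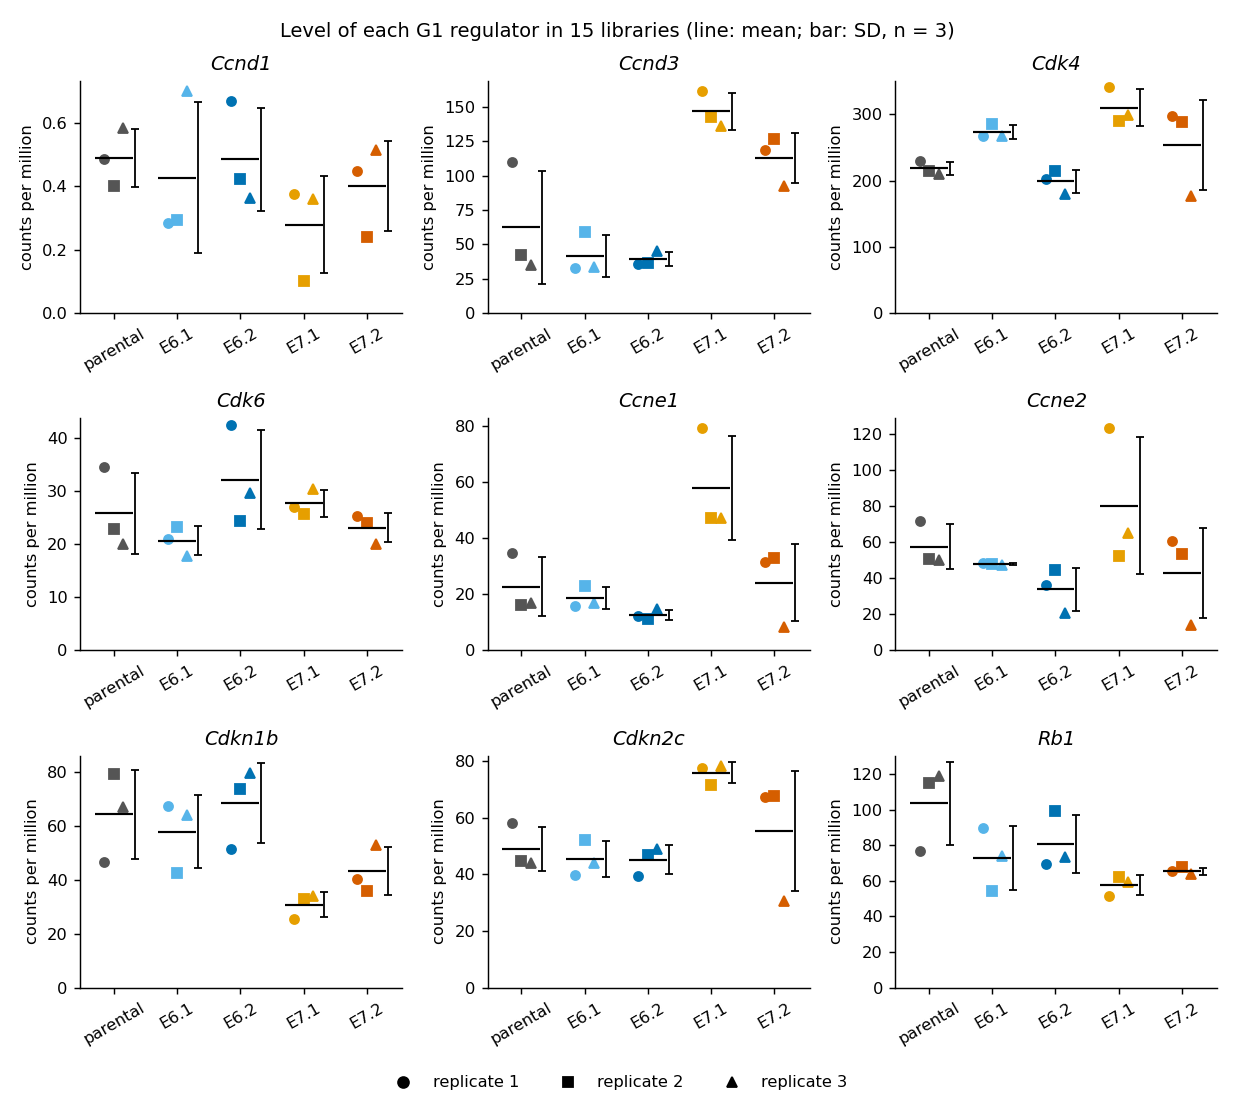
Level of 9 of the 10 G1 regulators in CPM (vertical axes, each from 0 and with its own scale) in the 3 libraries of each line. Symbols are replicates, horizontal lines are means and bars are SDs. The 6 E7 libraries of *Ccnd3* sit between 92.8 and 162 CPM, above the 6 E6 libraries at 32.6 to 59.4 CPM, while parental replicate 1 lies at 110 CPM among the E7 values.

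The catalytic partners of the D cyclins, *Cdk4* and *Cdk6*, were not called in any clone against parental cells. *Cdk4* (chromosome 10, from 127063534 to 127067920) was at 210 to 230 CPM in parental cells. E6.1 held 267 to 285 CPM and E6.2 held 179 to 214 CPM, while E7.1 held 290 to 342 CPM and the 3 libraries of E7.2 held 298, 288 and 176 CPM. The E6.1 and E7.1 libraries lay above the parental range, and E7.2 replicate 3 lay below it. The log2 fold change was 0.51 in E7.1 (SE 0.171, adjusted p = 0.119), 0.33 in E6.1 (SE 0.171, adjusted p = 0.821), 0.22 for E7.2 (adjusted p = 0.564) and -0.13 for E6.2 (adjusted p = 0.754). Without E7.2 replicate 3 *Cdk4* was called in E7.1 (0.53, SE 0.112, adjusted p = 0.0279), and the E7.2 value rose to 0.46 (adjusted p = 0.18), which did not pass. Of 10 alternatives that did not leave out a single library, 3 called *Cdk4* in E7.1, DESeq2 among them (adjusted p = 0.0493). In E7.2 it was called in 1 of 10, without replicate 3 of both E6.2 and E7.2 (edgeR adjusted p = 0.0481). *Cdk4* shares 18.59% of its exon bases with *Tspan31*.

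*Cdk6* (chromosome 5, from 3343893 to 3523218) was at 17.8 to 42.4 CPM over all libraries, and its mean was highest in E6.2 (32 ± 9.34 CPM) and lowest in E6.1 (20.6 ± 2.66 CPM). The libraries of these 2 clones did not overlap, and the log2 fold change of E6.2 against E6.1, 0.63 (SE 0.224, adjusted p = 0.246), did not pass the test. The highest of all 15 values, 42.4 CPM, was that of E6.2 replicate 1, and without it *Cdk6* was at 0.37 in E6.2 against E6.1 and at 0.05 in E6.2 against parental cells. Against parental cells it ranged from -0.32 in E6.1 to 0.31 in E6.2, with 95% intervals that stayed between -0.80 and 0.79 over the 4 clones. Per base of exon, *Cdk4* made up 90.8% ± 2.06 of the sum of *Cdk4* and *Cdk6* in parental cells and from 87.7% ± 3.2 in E6.2 to 93.8% ± 0.602 in E6.1 in the clones. The E6.1 share lay above all parental ones (exact two-sided permutation test, p = 0.1, the smallest that 3 against 3 libraries can give).

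The E cyclins, which act after the D cyclins and are themselves E2F targets, were not called in any clone against parental cells. *Ccne1* (chromosome 7, from 38097984 to 38107534) was at 34.7, 16.2 and 16.9 CPM in the parental libraries. The E6.1 libraries held 15.6, 23 and 16.9 CPM and the E6.2 libraries 12.1, 11 and 14.7 CPM. Those of E7.1 held 79.1, 47 and 47.2 CPM, and those of E7.2 held 31.3, 32.8 and 8.24 CPM. E7.1 lay above every other line. Replicates 1 and 2 of E7.2 lay above all parental and E6 libraries other than parental replicate 1, and its replicate 3 was the lowest of all 15. The log2 fold change against parental cells was 1.35 in E7.1 (SE 0.426, 95% interval 0.44 to 2.27, adjusted p = 0.101), and that of E7.2 was 0.1 (adjusted p = 0.931). For E6.2 and E6.1 it was -0.84 (adjusted p = 0.417) and -0.29 (adjusted p = 0.983). Without E7.2 replicate 3 *Ccne1* was called in E7.1 (1.38, adjusted p = 0.0279), and without parental replicate 1 as well (1.82, adjusted p = 0.0347). It was also called there in 5 of 10 alternatives that did not leave out a single library. Among these were no filter on low counts (adjusted p = 0.041), DESeq2 (adjusted p = 0.0247) and edgeR's likelihood ratio test (adjusted p = 0.0401). The value of *Ccne1* for E7.2 was 0.54 (adjusted p = 0.518) without its replicate 3 and 0.57 (adjusted p = 0.543) without parental replicate 1.

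*Ccne2* (chromosome 4, from 11191351 to 11204779) was at 50.1 to 71.6 CPM in parental cells. It ranged over 47.3 to 48.2 CPM for E6.1, 20.8 to 44.3 CPM for E6.2, 52.2 to 123 CPM for E7.1 and 14.1 to 60.6 CPM for E7.2. Both E6 clones lay below the parental range, with log2 fold changes of -0.77 (E6.2, SE 0.437, adjusted p = 0.469) and -0.27 (E6.1, SE 0.434, adjusted p = 0.987) that did not pass the test. Its lowest value was again E7.2 replicate 3, without which the log2 fold change of *Ccne2* for E7.2 moved from -0.43 to 0.03. *Ccne2* shares 17.425% of its exon bases with *Ints8*, and its transcripts have a GC content of 37.5%, lower than that of nearly all tested genes (percentile 1.22).

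The share of *Ccne1* among the E cyclins was next compared. Per base of exon, *Ccne1* made up 33% ± 5.07 (SD, n = 3) of the 2 E cyclins in parental cells, 34.5% ± 12.2 for E6.2 and 33.5% ± 4.64 for E6.1, against 42.8% ± 2.17 for E7.2 and 49.6% ± 4.24 for E7.1. The E7.1 shares of 45.8% to 54.2% and the E7.2 shares of 40.4% to 44.6% lay above the parental ones of 29.6% to 38.9% (exact two-sided permutation test, p = 0.1 in each clone, the smallest possible). E7.2 replicate 3, at a low level of both genes, did not stand apart in this ratio. The E6.2 libraries spread from 24.7% to 48.1% and overlapped all the other lines.

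**Figure D2:**
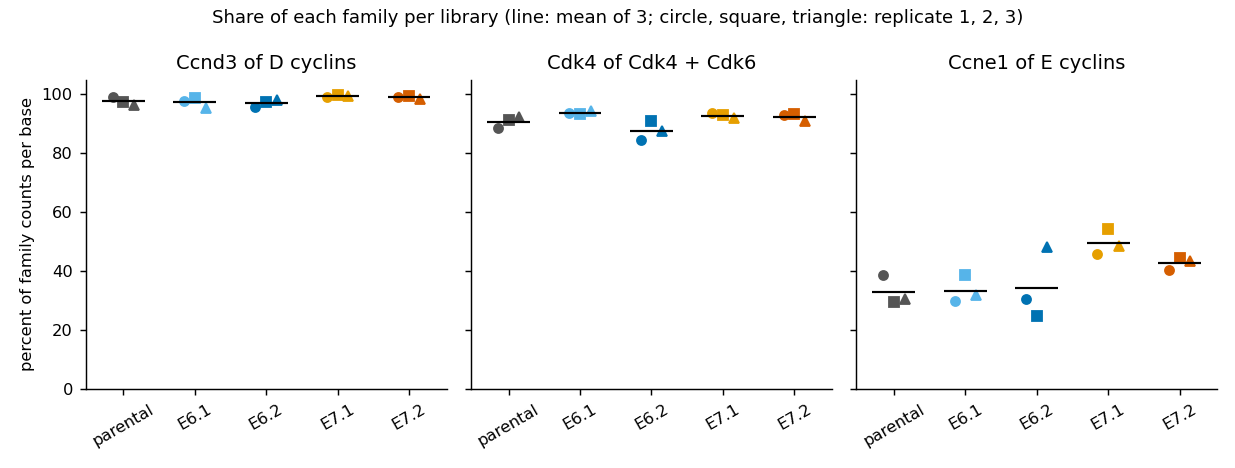
Share of *Ccnd3* among the D cyclins, of *Cdk4* in the sum of *Cdk4* and *Cdk6*, and of *Ccne1* among the E cyclins, in percent of counts per base of exon (vertical axis, from 0), for each library of the 5 lines. *Ccnd3* and *Cdk4* make up most of their families in each library, and the *Ccne1* share is 33% in parental cells and 49.6% in E7.1 on average.

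Of the inhibitors, *Cdkn1b* was called in E7.1 and *Cdkn2c* was not. *Cdkn1b* (ENSMUSG00000003031, chromosome 6, from 134920401 to 134925513) was at 46.6, 79.4 and 67.3 CPM in the parental libraries. The E6.1 libraries held 67.4, 42.5 and 64 CPM and the E6.2 libraries 51.7, 74 and 79.9 CPM. Those of E7.1 held 25.6, 32.8 and 34.2 CPM, and those of E7.2 held 40.4, 36 and 53.2 CPM. The E7.1 libraries lay below those of every other line, and those of E7.2 overlapped the parental and E6 ranges. *Cdkn1b* fell in E7.1 by 1.06 on the log2 scale (2.09-fold, SE 0.241, 95% interval -1.58 to -0.55, edgeR adjusted p = 0.049) and was the 1 member called in a comparison of a clone with parental cells. Its log2 fold change was -0.58 in E7.2 (SE 0.238, adjusted p = 0.334), and the E6 clones were at 0.09 (E6.2, adjusted p = 0.889) and -0.15 (E6.1, adjusted p = 0.984).

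The call of *Cdkn1b* in E7.1 was close to the threshold. It held in 4 of the 15 fits that left out 1 library, namely without parental replicate 1, E6.2 replicate 1, E6.2 replicate 3 or E7.2 replicate 3, with log2 fold changes from -1.23 to -0.88 and adjusted p values of 0.0131 to 0.257 over the 15. Of the 10 alternatives that did not leave out a single library, 8 called *Cdkn1b* in E7.1. The call was lost with the offset for GC content and length and with only the lines compared. The transcripts of *Cdkn1b* have a GC content of 43.9% (percentile 17.7 of the tested genes) and those of *Ccnd3* one of 57.2% (percentile 89.1), and in E7.1 the median log2 fold change was -0.17 in the 25% of genes lowest in GC and 0.13 in the 25% highest. With an offset for GC content and gene length the E7.1 value for *Cdkn1b* was -0.92 (adjusted p = 0.081) and that for *Ccnd3* 1.17 (adjusted p = 0.0838). In E7.2 the medians of the same 25% groups lay further apart, at -0.28 (lowest GC) and 0.23 (highest). The E7.2 value for *Cdkn1b* ranged from -0.72 to -0.35 over 10 alternatives that did not leave out a single library, and was called in 0 of them.

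*Cdkn2c* (chromosome 4, from 109660876 to 109667189), the inhibitor of Cdk4 and Cdk6, was at 44.1 to 58 CPM in parental cells. The E6.1 and E6.2 libraries spanned 39.8 to 52.2 and 39.3 to 49 CPM. Those of E7.1 spanned 71.6 to 78.4 CPM, and those of E7.2 held 67.5, 67.6 and 30.7 CPM. All of E7.1 and replicates 1 and 2 of E7.2 lay above the parental range, and replicate 3 of E7.2 lay below it. The log2 fold change was 0.63 in E7.1 (SE 0.237, adjusted p = 0.156), followed by 0.18 (E7.2, adjusted p = 0.748), -0.11 (E6.1, adjusted p = 0.991) and -0.12 (E6.2, adjusted p = 0.849). Without E7.2 replicate 3 *Cdkn2c* was called in E7.1 (0.66, adjusted p = 0.0313), and the value for E7.2 rose to 0.5 (adjusted p = 0.242), which did not pass.

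*Rb1* (chromosome 14, from 73183673 to 73325822), the pocket protein that the kinases phosphorylate, had a lower mean in each clone than in parental cells. It was at 76.9, 115 and 119 CPM in the parental libraries. E6.1 spanned 54.2 to 89.9 CPM and E6.2 69.5 to 99.5 CPM, and the E7 clones spanned 51.7 to 62 CPM (E7.1) and 63.7 to 67.6 CPM (E7.2). Both E7 clones lay below the parental range, and both E6 clones overlapped it. The log2 fold change was -0.85 in E7.1 (SE 0.203, 95% interval -1.28 to -0.41, adjusted p = 0.0559) and, among the other clones, -0.66 (E7.2, SE 0.202, adjusted p = 0.23), -0.51 (E6.1, SE 0.202, adjusted p = 0.595) and -0.36 (E6.2, adjusted p = 0.466). For the mean of the 4 clones it was -0.59 (SE 0.153, adjusted p = 0.172), so none of these values passed the test in the fit reported. In E7.1 *Rb1* was called in 6 of 10 alternatives, which were no filter on low counts (adjusted p = 0.0335), DESeq2 (adjusted p = 0.00575), edgeR with legacy = FALSE (adjusted p = 0.0499), the likelihood ratio test (adjusted p = 0.0084) and 2 fits that each left out a pair of libraries (adjusted p = 0.0217 and 0.0329). Leaving out 1 library, *Rb1* was called in 3 of 15 fits, without parental replicate 1 (adjusted p = 0.0136), E6.2 replicate 3 (adjusted p = 0.0316) or E7.2 replicate 3 (adjusted p = 0.0446). Its GC content was also low (41.5%, percentile 8.29), and with the offset for GC content and length the values were -0.65 for E7.1 (adjusted p = 0.107), -0.33 for E7.2 (adjusted p = 0.737) and -0.38 for the mean over the clones (adjusted p = 0.68). *Rb1* shares 14.896% of its exon bases with *Lpar6* and *Rcbtb2*.

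**Figure D3:**
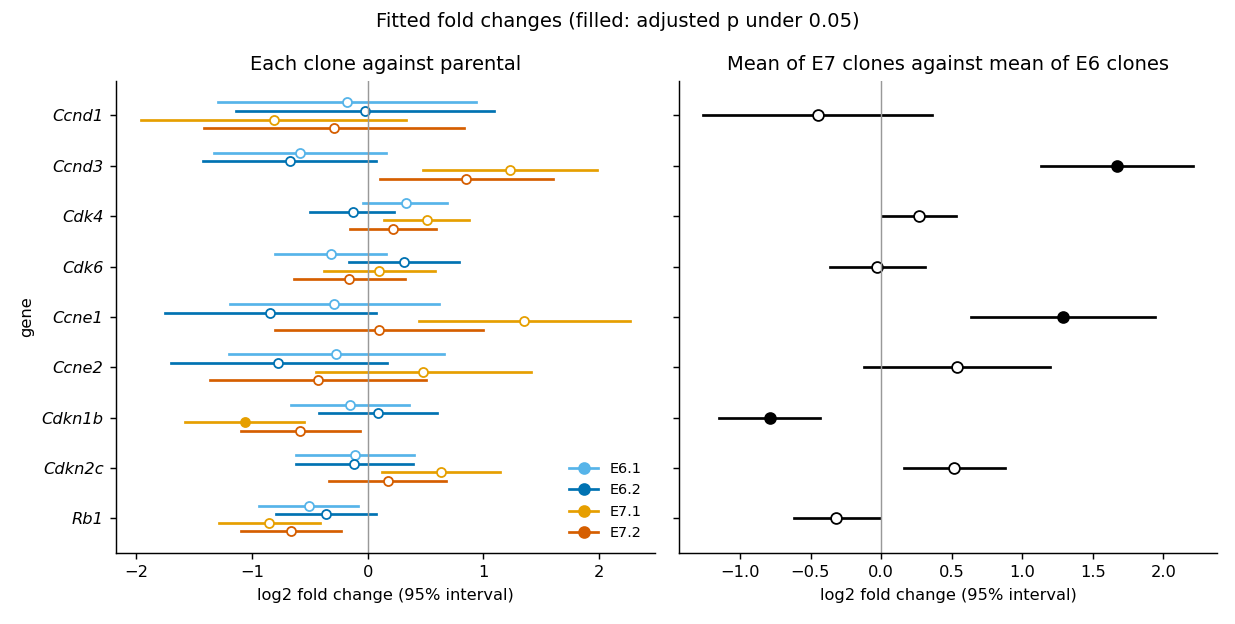
Log2 fold changes (horizontal axes) of the 9 tested genes with 95% intervals from edgeR, for each clone against parental cells (left, one colour per clone) and for the mean of the E7 clones against the mean of the E6 clones (right). Filled points passed an adjusted p of 0.05, which on the left is *Cdkn1b* in E7.1 at -1.06 and on the right *Ccnd3* at 1.67, *Ccne1* at 1.29 and *Cdkn1b* at -0.79.

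Over the 9 tested members, 1 was called in E7.1, where edgeR's quasi-likelihood test called 1.22% of all 13904 tested genes, and 0 in each of the other clones, at backgrounds of 0.324% (E6.1), 1.17% (E6.2) and 0.295% (E7.2) of all genes. DESeq2 called 5 members in E7.1, where it called 8.34% of all genes, and 0 in each of the others. Without E7.2 replicate 3, 5 members were called in E7.1, at a background of 4.25%. At an unadjusted p under 0.05 there were 6 members for E7.1 (against 20% of all tested genes), 3 for E7.2 (13.3%), 1 for E6.1 (6.71%) and 0 for E6.2 (13.1%). The 4 comparisons share the same 3 parental libraries. In the mean of the 4 clones against parental cells 0 members were called (0.503% of all genes), and 2 had an unadjusted p under 0.05 (against 9.9% of all genes). The test for any difference among the 5 lines called 3 of 9 members, against 6.28% of all genes: *Ccnd3* (adjusted p = 0.0111), *Ccne1* (adjusted p = 0.0333) and *Cdkn1b* (adjusted p = 0.039). Between clones made with the same exon target 0 members were called, both for E6.2 against E6.1 (1.24% of all genes) and for E7.2 against E7.1 (0.59%). This does not show that the clones were alike. At an unadjusted p under 0.05 there were 2 members for E6.2 against E6.1 (against 12.9% of all genes) and 1 for E7.2 against E7.1 (13.3%). The largest log2 fold change between clones of the same exon was that of *Ccne1*, lower in E7.2 than in E7.1 by 1.26 on the log2 scale (-1.26, SE 0.425, 95% interval -2.17 to -0.35, adjusted p = 0.25), and without E7.2 replicate 3 that difference was -0.83 (adjusted p = 0.679).

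When the mean of the E7 clones was set against the mean of the E6 clones, 3 of the 9 members were called, at a background of 12.1% of all tested genes. *Ccnd3* was higher in the E7 clones by 1.67 on the log2 scale (3.18-fold, SE 0.251, 95% interval 1.13 to 2.21, adjusted p = 0.00238), in 6 of 6 libraries above the 6 of the E6 clones. *Ccne1* was higher by 1.29 (2.44-fold, SE 0.303, 95% interval 0.64 to 1.94, adjusted p = 0.0187), with overlap through E7.2 replicate 3. *Cdkn1b* was lower (-0.79, 1.73-fold, SE 0.169, 95% interval -1.15 to -0.43, adjusted p = 0.0135), with E7 libraries at 25.6 to 53.2 CPM and E6 libraries at 42.5 to 79.9 CPM. The next was *Cdkn2c* (0.52, SE 0.167, adjusted p = 0.0577), followed by *Rb1* (-0.32, adjusted p = 0.148), *Cdk4* (0.27, adjusted p = 0.149), *Ccne2* (0.54, adjusted p = 0.247), *Ccnd1* (-0.45, adjusted p = 0.444) and *Cdk6* (-0.03, 95% interval -0.36 to 0.31, adjusted p = 0.933).

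Leaving out 1 library at a time, *Ccnd3* was called in all 15 fits of this contrast (log2 fold change 1.6 to 1.84). *Cdkn1b* was called in 14 and missed the threshold without E6.1 replicate 1 (-0.72, adjusted p = 0.0513). *Ccne1* was called in 10, and not without E6.1 replicate 1 (adjusted p = 0.0629), E6.1 replicate 3 (adjusted p = 0.0574), E7.1 replicate 1 (adjusted p = 0.0511), E7.2 replicate 1 (adjusted p = 0.0509) or E7.2 replicate 2 (adjusted p = 0.0559). Without E7.2 replicate 3 the called members were 6, with *Cdk4* (0.4, adjusted p = 0.00798), *Cdkn2c* (0.69, adjusted p = 0.00198) and *Ccne2* (0.78, adjusted p = 0.0284) added, at a background of 17.7% of all genes. Without both E6.2 replicate 1 and E7.2 replicate 3 the same 6 were called, at a background of 18.5%. With the offset for GC content and length the 3 calls remained (*Ccnd3* 1.59, *Ccne1* 1.28, *Cdkn1b* -0.72), at a background of 13.8%. Each exon was represented by 2 clones, so the exon and the clone cannot be told apart by this test.

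*Ccnd3* and *Cdkn1b* lay at opposite ends of the same libraries. Over the 15 libraries the log2 CPM of the pair had a Pearson r of -0.875, *Ccne1* and *Cdkn1b* one of -0.835 and *Ccne1* and *Cdkn2c* one of 0.935, as a description over libraries that differ in line, depth and composition. Parental replicate 1, with *Ccnd3* at 110 CPM and *Cdkn1b* at 46.6 CPM, was nearer to the E7.2 libraries than to the other parental ones in both genes, and it also held the highest parental values of *Ccne1*, *Ccne2*, *Cdk4*, *Cdk6* and *Cdkn2c* and the lowest of *Rb1*. Its *Foxp1* level of 102 CPM was the lowest parental one as well, against 166 and 147 CPM in replicates 2 and 3.

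**Figure D4:**
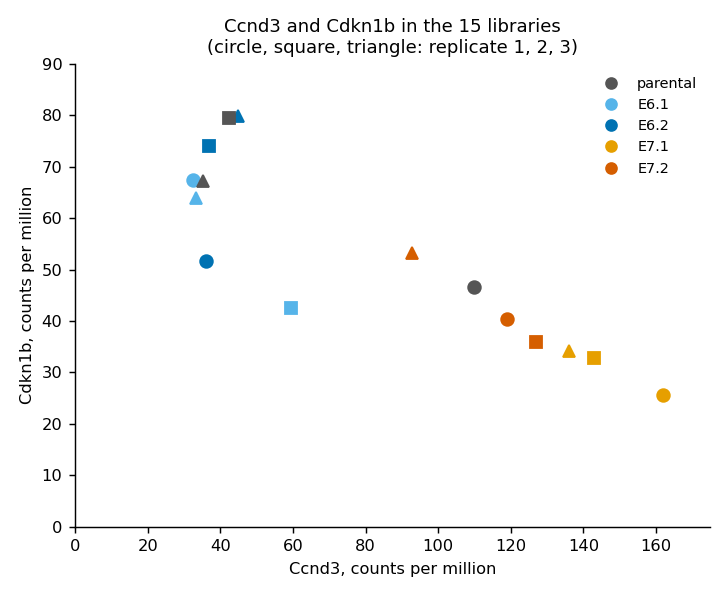
Level of *Ccnd3* (horizontal axis) against that of *Cdkn1b* (vertical axis), both in CPM, with 1 point for each of the 15 libraries, coloured by line. The E7.1 libraries sit at the lower right, with *Ccnd3* at 136 to 162 CPM and *Cdkn1b* at 25.6 to 34.2 CPM, and parental replicate 1 (110 and 46.6 CPM) lies among the E7.2 libraries.

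The genes whose log2 CPM followed these members most closely over the 15 libraries were *Fermt3* (r = 0.98), *Slc9a3r1* (0.972) and *Pfkl* (0.967) for *Ccnd3*, *Nup93* (0.975), *Paxip1* (0.969) and *Tuba1b* (0.964) for *Ccne1*, and *Exoc2* (0.969), *Fam8a1* (0.966) and *Mynn* (0.962) for *Cdkn1b*. None of these 9 genes lies on the chromosome of its member. Tested genes within 2 Mb of each member were set beside it. For *Ccnd3* the 59 neighbours had a median log2 fold change of 0.02 in E7.1 beside 1.23 for the gene itself, and of -0.07 between the E7 and E6 clones beside 1.67. For *Ccne1* the 10 neighbours had medians of -0.4 in both comparisons, against its own 1.35 and 1.29. The 20 neighbours of *Cdkn1b* leaned in its direction, with a median of -0.31 in E7.1 (6 of 20 with a positive value) beside -1.06 and of -0.22 between the E7 and E6 clones beside -0.79. The 15 neighbours of *Rb1* had a median of 0.08 in E7.1 beside -0.85.

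In levels per base of annotated exon, *Cdk4* was the highest of the 10 in parental cells (172 ± 14.9 TPM, that is, counts per base of exon scaled to a fixed sum in each library, n = 3, at percentile 93.3 of the tested genes). It was followed by *Cdkn2c* (46.7 ± 8.32 TPM), *Rb1* (44 ± 9.81 TPM), *Ccne2* (42.1 ± 9.61 TPM) and *Cdkn1b* (36.3 ± 10.4 TPM), which did not differ beyond their spread. *Ccne1* (21.8 ± 10.3 TPM), *Ccnd3* (18.3 ± 12.3 TPM) and *Cdk6* (17.7 ± 5.59 TPM) came next, and *Ccnd1* (0.324 ± 0.0406 TPM) and *Ccnd2* (0.0169 ± 0.0293 TPM) last. In E7.1 *Ccnd3* was at 42.9 ± 3.35 TPM and *Cdkn1b* at 17.4 ± 2.77 TPM. In parental replicate 1 *Ccnd3* (32.4 TPM) was likewise above *Cdkn1b* (26.4 TPM), and in the other parental libraries it was below. The order of the genes depends on the exon lengths used, which cover all annotated exons of a gene (8775 bases for *Ccnd3*, percentile 92.9 of the tested genes). These lengths also hold bases shared with other genes, where read pairs were not counted. The length of the transcripts in use was not measured.

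The rest of the pathway was taken from 7 lists of genes. Of the 18 E2F targets of S phase entry, such as the *Mcm* helicase subunits and *Pcna*, 0 were called in any of the 9 comparisons by edgeR's quasi-likelihood test. Positive log2 fold changes were 18 of 18 in E6.1 (median log2 fold change 0.28) and 17 in E7.1 (median 0.56), against 10 for E7.2 (median 0.07) and 1 for E6.2 (median -0.34), where the medians over all tested genes lay between -0.025 and 0.059. At an unadjusted p under 0.05 there were 3 of 18 E2F targets in E7.1, against 20% of all tested genes, and 0 in the other clones. E7.2 replicate 3 stood apart in this list, whose summed level was 1010 CPM there against 3575 and 3593 CPM in replicates 1 and 2 of E7.2 and 1630 to 4275 CPM in the libraries of the other lines. The 11 mitotic genes, such as *Ccnb1* and *Plk1*, had a median of 0.64 in E7.1, 0.06 for E7.2, -0.1 for E6.1 and -0.22 for E6.2, again with 0 called and with 4 of 11 at an unadjusted p under 0.05 in E7.1 (20% of all genes) and 0 in the other clones. Their summed level was 828 CPM in E7.2 replicate 3 and 2015 to 3941 CPM in the other 14 libraries. The 3941 CPM was that of parental replicate 1, against 2673 and 2500 CPM in the other parental libraries. The part of the low level of E7.2 replicate 3 in the results for E7.2 was not tested beyond the values given without that library.

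Of the 12 other pocket proteins, E2F factors and their DP partners, the 6 genes of Cdk2 and its activation and the 10 ubiquitin ligase components that degrade G1 regulators, 0 were called in any comparison. Their medians in E7.1 were 0.26, 0.09 and 0.18, with 4, 3 and 3 genes at an unadjusted p under 0.05, where the share over all genes was 20%. Of the 5 other kinase inhibitors, 4 were tested and 1 was called, in the comparison of E7 with E6 clones, where 12.1% of all genes were called. This was *Cdkn2d* (p19), a relative of *Cdkn2c*, which was higher in the E7 than in the E6 clones (log2 fold change 0.91, SE 0.189, adjusted p = 0.0117) at low levels of 4.07 ± 1.24 CPM (E7.2) and 4.66 ± 0.244 CPM (E7.1) against 2.15 ± 0.416 CPM (E6.2) and 2.48 ± 0.425 CPM (E6.1). Of the 8 upstream genes of the PI3K and FOXO pathway 1 was called in the same comparison (again against 12.1%), *Akt1*, the kinase that phosphorylates FOXO factors and p27. It was higher in the E7 than in the E6 clones (0.74, SE 0.204, adjusted p = 0.0343), at 106 ± 4.59 CPM (E7.2) and 126 ± 4.11 CPM (E7.1) against 77.1 ± 36.1 CPM (E6.2) and 62.3 ± 14.5 CPM (E6.1). Against parental cells 0 of the 8 were called in any clone. At an unadjusted p under 0.05 there were 6 of 8 in E7.1 (20% of all genes), 3 in E7.2 (13.3%), 1 in E6.2 (13.1%) and 0 in E6.1 (6.71%). In E7.1 the median log2 fold change of the 8 was -0.28, with 3 positive values. RNA was measured in bulk, so a change in the share of cells in G1 cannot be told apart from a change in the RNA of each cell.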

How the data were processed

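RNA from 15 libraries was sequenced on a HiSeq4000. The authors deposited raw counts per gene, that is, whole read pairs not normalized. Per the file headers, these came from featureCounts 1.5.0, with a GRCm38 gene annotation to which ERCC sequences were added (0 counts), without strand, so that pairs overlapping several genes were left out. The submitters' processing notes name HISAT, SAMtools and the build mm10. HISAT's version is not given in the sources used here.

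From the counts, filterByExpr kept 13904 genes, TMM scaling was applied, and edgeR 4.0.16 (R 4.3.3, glmQLFit and glmQLFTest) was fitted jointly over the 15 libraries, with cell line as its single factor. Genes were called at a Benjamini-Hochberg adjusted p under 0.05 over all tested genes, within each of 9 comparisons. Intervals of folds are at 95%. The method was tested on simulated data. The floor was 3 counts. Shares and levels per base used the deposited exon length, which includes bases shared with other genes. Symbols and GC content came from GENCODE and RefSeq.

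The members, gene lists and tests were chosen with earlier results of these data known. The rule for names took all 10 members, list genes called in a comparison, *Foxp1*, and for the 3 members with the smallest p over the 5 lines the 3 genes of highest correlation. The 7 lists hold other kinase inhibitors, Cdk2 and its activation, pocket and E2F proteins, ubiquitin ligases, E2F targets, mitotic genes and PI3K and FOXO genes. Replicate numbers are not stated to pair the samples, and the fit reported did not pair them.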

Additional observations from a re-analysis of the deposited data

Results flagged for a closer look

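For 3 of the 9 tested members the effect against parental cells differed between the E7 and the E6 clones, by the test of that difference itself in edgeR's quasi-likelihood fit. The same test called 12.1% of all 13904 tested genes. *Ccnd3* was higher in the E7 clones by 1.67 on the log2 scale (adjusted p = 0.00238, in 6 of 6 libraries), *Ccne1* by 1.29 (adjusted p = 0.0187), and *Cdkn1b* differed by -0.79 (adjusted p = 0.0135). With 2 clones per exon, the targeted exon and the clone cannot be told apart. Lines of 3 libraries were too small to test a single library as an outlier.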

How the results depend on the processing

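Of 1782 recomputed log2 fold changes of members, 0 of those called changed sign, 19 lost a call, 45 gained one and 42 moved by over 1 standard error with no call. *Ccnd3*, *Ccne1* and *Cdkn1b* were called between the E7 and E6 clones in all 9 alternatives that did not leave out a single library. Percentages in parentheses are the share of all genes called in the same fit. The number of members called in E7.1 (1 in the fit reported, 1.22%) was 4 with no filter on low counts (1.38%), 5 with DESeq2 1.42.0 (8.34%), 2 with legacy = FALSE (1.73%) and 4 with edgeR's likelihood ratio test (5.38%). It was 0 with only the lines compared (1.29%, *Cdkn1b* adjusted p = 0.0514), 6 without E6.2 replicate 3 and E7.2 replicate 3 (15.2%), 5 without E6.2 replicate 1 and E7.2 replicate 3 (7.73%), and 0 with the offset for GC content and length (0.683%). Those last 2 alternatives were chosen after seeing the data. Over the 5 lines (3 reported, 6.28%) it was 5 with DESeq2 (22.5%), the likelihood ratio test (17.6%), both replicates 3 left out (28.6%) and the other pair left out (12.6%), and 2 with the offset (6.91%). Between the E7 and E6 clones (3 reported, 12.1%) it was 4 with no filter (6.17%), DESeq2 (19.3%) and the likelihood ratio test (16.2%), and 6 with both replicates 3 left out (33.1%) or the other pair (18.5%). In E7.2 (0 reported) it was 1 without both replicates 3 (1.53%), and in the mean of the 4 clones (0 reported) it was 1 with the likelihood ratio test (*Rb1*, adjusted p = 0.0378, 1.04%). Leaving out 1 library gave 0 to 1 for E7.2, 0 to 5 for E7.1, 1 to 5 over the 5 lines, 1 to 6 between the E7 and E6 clones and 0 in the other 5 comparisons. The causes were not tested.

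Same-numbered libraries correlated with a mean r of 0.0531 over 30 pairs (11 over 0.1). For pairs of different number the mean r was -0.0249 over 60 pairs (9 over 0.1). The highest r was 0.426, between E6.2 replicate 3 and E7.2 replicate 3. The numbers are not stated to mark a shared passage. The replicate block left the counts at 1 in E7.1, 3 over the 5 lines and 3 between the E7 and E6 clones, with 0 in the other 6 comparisons. From raw counts without length scaling, the *Ccnd3* share was 98.7% for E6.2, 99.6% for E7.2 and 99.7% for E7.1, the *Cdk4* share 91.8% for E7.1 and 93% for E6.1, and the *Ccne1* share 27.4% for parental cells, 27.8% for E6.1, 36.3% for E7.2 and 42.9% for E7.1. With DESeq2's size factors 1 of 50 levels moved by over its SD (*Ccne2* in E6.1, 47.3 CPM). Within 5 Mb, 3 of 72 neighbour medians moved by over the member's standard error: *Ccne1* between the E7 and E6 clones (-0.07), *Cdk6* in E7.1 (-0.03) and *Rb1* in E6.2 against E6.1 (0.07). That standard error is not the spread of such a median, and 9 of the 72 changed sign. Near *Cdkn1b* the 5 Mb median was -0.18 in E7.1 (10 of 26 positive) and -0.21 between the E7 and E6 clones. Near *Ccne1* it was -0.08 in E7.1. Depth limits *Ccnd1* and *Ccnd2*, at no more than 28 and 9 counts per library.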
